A study of Mus musculus with 6 samples.

Results

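The leucine rich melanocyte differentiation associated gene *Lrmda* contained 19 differentially methylated regions (DMRs) between infant and young adult lung endothelial cells (EC), and 17 of them gained methylation with age. The members were the DMRs of the deposited list with their midpoint inside the gene (mm10, plus strand, chr14:22019712-23056088), 19 of 18333 in all. The comparison was made by T-WGBS, a bisulfite sequencing of the whole genome in which a transposase fragments the DNA and the share of cytosines left unconverted by bisulfite gives the methylation of a CpG. Each group had 3 samples. The infant mice were 8 to 10 days of age and the young adult mice 8 to 12 weeks, all of the strain C57BL/6N and female by the methods of the study. No allele or agent was given to either group, and the EC of both were sorted from lung by the same markers (CD31+ CD34+, and PTPRC-, LYVE1-, LY76- and PDPN-). The study describes the EC as coming from 3 mice per age group, and no pooling of mice is described.

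DNA methylation at CpGs is set by DNA methyltransferases and removed by TET enzymes or by dilution when cells divide. Most CpGs of gene bodies are methylated in differentiated cells, whereas CpG-rich promoters and bound enhancers are usually kept low. *Lrmda* encodes a small leucine-rich repeat protein that is known for its role in the differentiation of pigment cells, and its human counterpart is linked to oculocutaneous albinism. No role of the gene in EC is assumed here.

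The values are the authors' means of each group, averaged over the CpGs of a region and over the samples. Values per sample were not analysed here, so that the error between replicates is not known for any value below and no test was run. A region entered the authors' list only with 3 or more CpGs in a row that each passed their test at 0.05, and with a minimum difference of 10% between the means. *Lrmda* itself was chosen by its number of gain DMRs, which was counted from the same means. The directions and sizes below are therefore a description of selected regions. CpGs needed 8-fold coverage or more in 2 samples per group, and the depth behind a single region is unknown. A list of regions that differ does not hold marker levels, so the cell type could not be checked. In sorted populations, a change within cells and a change in the mix of cells cannot be told apart.

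*Lrmda* is a long gene. Its single curated RefSeq transcript (NM_028275) spans 1036 kb with 7 exons and contains 7832 CpGs in the reference, or 7.56 per kb. Most of the length lies in 3 introns. Intron 2 covers 550520 bp, intron 5 covers 232146 bp and intron 6 covers 227172 bp. The 19 DMRs together contained 62 of the CpGs, or 0.792%, and nothing is listed for the others. Those may have been unchanged, too thinly covered, or changed without meeting the criteria of the list for a region. Of the DMRs, 14 contained 3 CpGs, the smallest number that the list allows, and 5 contained 4.

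The DMRs are numbered here from 5′ to 3′, with coordinates from the C of the first CpG to the G of the last. DMR 1 and DMR 2 lay nearest to the transcription start, 16.7 and 17.1 kb into the gene in intron 2, and only 223 bp of sequence separated them. Their plus strand sequences are shown to give the setting of the closest pair of gains in the gene, with CpGs in capitals.
DMR 1 (chr14:22036320-22036493): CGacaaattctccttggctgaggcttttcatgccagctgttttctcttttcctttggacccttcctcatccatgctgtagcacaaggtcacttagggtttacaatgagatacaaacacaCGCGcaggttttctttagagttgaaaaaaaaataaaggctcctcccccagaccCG
DMR 2 (chr14:22036717-22036975): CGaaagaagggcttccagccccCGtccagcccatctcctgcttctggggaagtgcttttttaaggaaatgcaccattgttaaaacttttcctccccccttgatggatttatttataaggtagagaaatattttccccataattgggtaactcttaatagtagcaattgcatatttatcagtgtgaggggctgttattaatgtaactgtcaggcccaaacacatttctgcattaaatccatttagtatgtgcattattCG
Both were largely unmethylated in infant EC. DMR 1 rose from 11.8% (infant) to 41.2% (young adult). DMR 2 rose from 27.2% to 56.6%, so that DMR 2 was the higher in either group while the gains were alike at 29.3 and 29.5 percentage points. Both overlapped an exon of *Gm41107*, a predicted long noncoding RNA gene on the same strand that is not among the curated transcripts. No member overlapped an exon of *Lrmda* itself or any exon of the GENCODE vM21 annotation.

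Farther into intron 2, gains alternated with the only losses of the gene. DMR 3 (42.1 kb from the start) was already well methylated and rose from 75.4% to 90.8%. DMR 4 (71.1 kb) showed the largest gain of the gene, 36.3 percentage points, from 16.9% to 53.2%. DMR 5 (82.9 kb) changed in the opposite direction and fell by 42.9 percentage points, from 77.5% to 34.6%, which exceeded each of the gains. DMR 4 and DMR 5 lay 11.6 kb apart, and DMR 5 was followed after 11.4 kb by another gain, DMR 6, which rose from 45.7% to 77.3%. The loss was thus a single region between gains. The sequences of the largest gain and of both losses of the gene are given to set the opposite directions side by side.
DMR 4 (chr14:22090740-22090856): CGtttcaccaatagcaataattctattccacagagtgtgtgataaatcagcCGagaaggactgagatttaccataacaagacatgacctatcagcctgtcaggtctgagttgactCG
DMR 5 (chr14:22102489-22102673): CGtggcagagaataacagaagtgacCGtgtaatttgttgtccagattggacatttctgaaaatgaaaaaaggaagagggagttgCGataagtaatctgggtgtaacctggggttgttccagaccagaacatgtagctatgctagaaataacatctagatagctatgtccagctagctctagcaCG
DMR 9 (chr14:22157001-22157060): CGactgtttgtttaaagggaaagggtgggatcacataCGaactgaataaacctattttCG
DMR 9 (137 kb), the other loss, was lowly methylated in both groups and fell from 11.0% to 0.585%. Its difference of 10.4 percentage points was close to the minimum that the list allows. It lay 2.74 kb downstream of DMR 8, which rose from 72.9% to 88.7%, and DMR 8 in turn lay 1.49 kb from DMR 7, which rose from 57.9% to 85%. Within less than 5 kb, gain of methylation at intermediate to high levels therefore adjoined a nearly unmethylated region with a small loss.

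**Figure D1:**
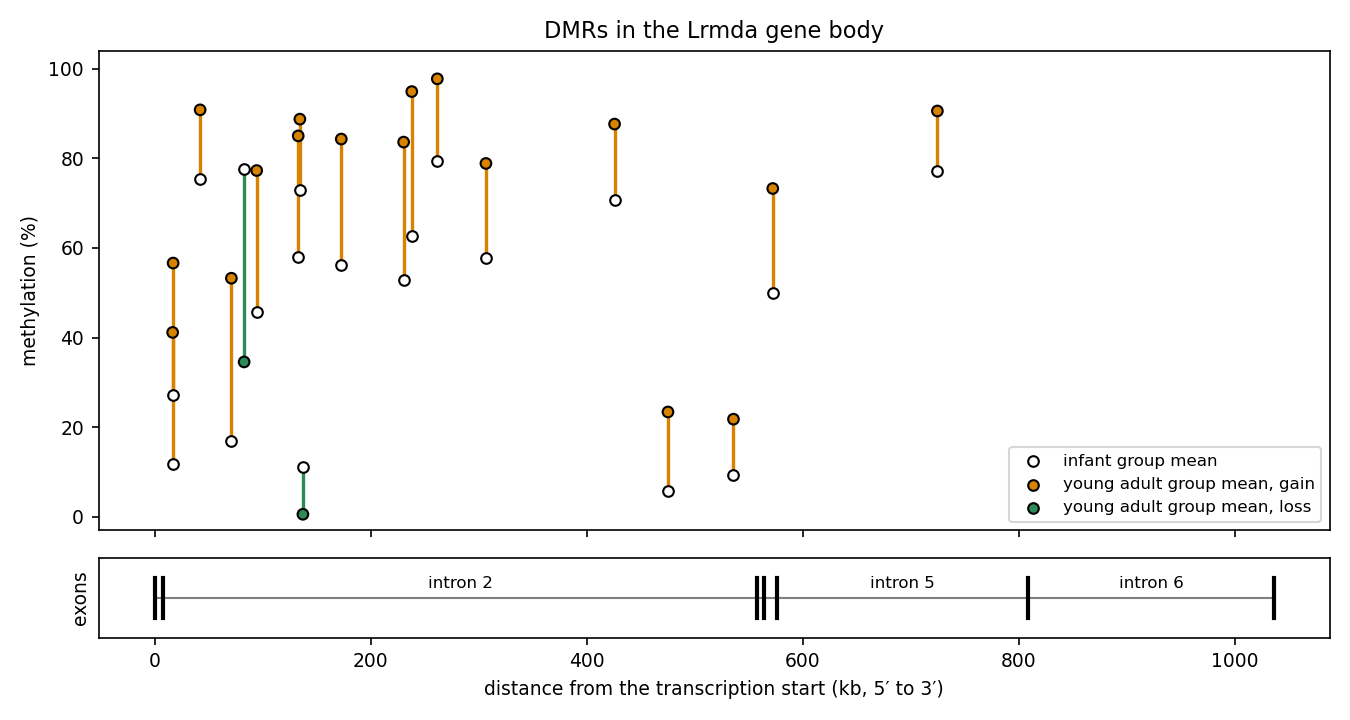
Group mean methylation in % of the 19 DMRs in *Lrmda* (vertical axis) by distance from the transcription start in kb (horizontal axis), with open points for infant and filled points for young adult EC, joined by a line in orange for gain and green for loss. The lower panel shows the 7 exons as bars. The 2 losses lie at 82.9 and 137 kb among the gains, and no DMR lies in the last 311 kb.

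Downstream of DMR 9, all 10 remaining DMRs gained methylation, the longest run of a single direction in the gene. DMR 10 (173 kb), DMR 11 (231 kb) and DMR 12 (238 kb) rose from intermediate levels of 56.2%, 52.9% and 62.7% to 84.3%, 83.6% and 94.9%. These 3 regions thus ended at the high levels that are usual for gene bodies. DMR 13 (262 kb) started at 79.5%, the highest infant level of the gene, and reached 97.7%, the highest young adult level. DMR 14 (307 kb) rose from 57.7% to 78.9%, and DMR 15 (426 kb) from 70.7% to 87.6%. The sequences of DMR 7, DMR 12 and DMR 13 illustrate how unlike the gain regions were. DMR 7 is 31 bp long with a GC content of 71%, DMR 12 is the widest of the gene with 287 bp, and DMR 13 has the lowest GC content of all with 36.8%.
DMR 7 (chr14:22152654-22152684): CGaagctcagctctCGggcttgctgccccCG
DMR 12 (chr14:22257705-22257991): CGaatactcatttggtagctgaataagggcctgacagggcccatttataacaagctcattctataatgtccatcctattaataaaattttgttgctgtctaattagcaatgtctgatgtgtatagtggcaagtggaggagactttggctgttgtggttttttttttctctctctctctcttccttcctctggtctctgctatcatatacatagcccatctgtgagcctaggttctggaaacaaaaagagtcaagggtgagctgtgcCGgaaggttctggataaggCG
DMR 13 (chr14:22281452-22281519): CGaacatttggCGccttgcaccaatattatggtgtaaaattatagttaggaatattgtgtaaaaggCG
The 3 regions started at intermediate to high infant levels of 57.9%, 62.7% and 79.5% and ended at 85%, 94.9% and 97.7%. A relation of the end level to length or composition was not tested.

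A pair of regions near the 3′ end of intron 2 stayed lowly methylated although they gained. DMR 16 (475 kb) rose from 5.82% to 23.4%, and DMR 17 (536 kb) from 9.40% to 21.8%, the smallest gain of the gene with 12.4 percentage points. They are short regions of 46 and 43 bp. Each contains the letters CGGAA, the core of ETS factor motifs with a CpG, on either strand (as does DMR 12, shown above).
DMR 16 (chr14:22495066-22495111): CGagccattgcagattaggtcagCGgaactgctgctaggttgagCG
DMR 17 (chr14:22555724-22555766): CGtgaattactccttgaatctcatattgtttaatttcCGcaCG
The last members lay beyond intron 2. DMR 18 in intron 4 (572 kb) rose from 49.97% to 73.3%, and DMR 19 in intron 5 (725 kb) from 77.2% to 90.6%. DMR 19 lay within *Gm30926*, a predicted long noncoding RNA gene on the opposite strand.

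By their infant level, the gains were split into a low and a high group, with no member between 27.2% and 45.7%. This gap rests on only 17 regions and was not tested. Intragenic DMRs of the whole list did gain from such levels. For example, 86 of them lay in the 5 by 5 percentage point cell that starts at 35% (infant) and 65% (young adult). In 5 gains (DMR 1, 2, 4, 16 and 17) the infant mean was under 30%, and the young adult mean remained at 21.8% to 56.6% (median 41.2%). In the other 12, the infant mean was 45.7% to 79.5% and the young adult mean 73.3% to 97.7% (median 86.3%). The groups overlapped in neither age. They were formed from the infant values, so the separation in infant EC is by construction. That in young adult EC is not independent of it, since each young adult mean is the infant mean plus the gain. The median gain was 29.3 percentage points in the low group and 22.2 in the high group. This contrast is not independent of the split either, since a high infant level leaves less room to gain. Relative to the unmethylated share in infant EC, the order was reversed. A median of 66.7% of that share was left in young adult EC in the low group, and 39.3% in the high group. The low share was 29.4% of the gains of *Lrmda*, beside 23.4% of all gain DMRs of the list and 16.0% of those in genes of at least 500 kb. It was 26.4% of all intragenic gains, and 31.8% in *Magi1* and 5.26% in *Rora*, long genes with many gains that are described below.

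**Figure D2:**
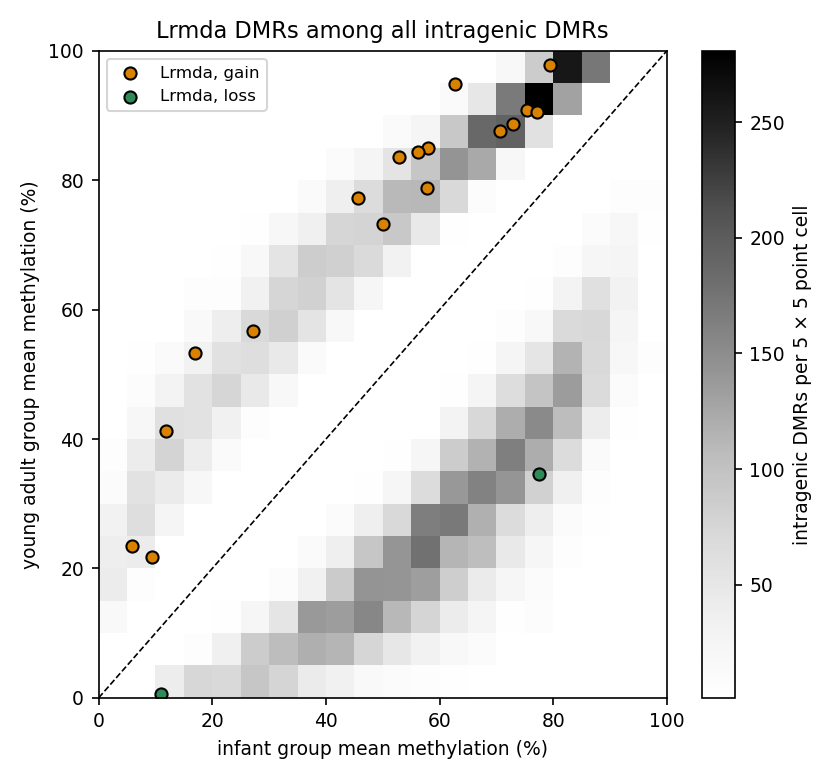
Young adult against infant group mean methylation, both in %, for the 17 gains (orange) and 2 losses (green) of *Lrmda*, over the number of intragenic DMRs of the whole list per cell of 5 by 5 percentage points (grey). The *Lrmda* gains lie in the band of all intragenic gains above the dashed line of equal levels, with 5 of them at infant levels under 30%.

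Over the whole list, 54.1% of DMRs gained methylation, against 89.5% (17 of 19) in *Lrmda*. The share of gains was 42.5% among the 12174 intragenic DMRs, but 75.2% among the 674 DMRs in genes of at least 500 kb. It was 55.4% on chromosome 14. The share of *Lrmda*, which was chosen for its gains, lay nearer to that of the long genes than to that of all gene bodies. Both of these sets include *Lrmda* itself. Among the 47 genes of at least 500 kb with at least 5 DMRs, the median share of gains was 80%, and 17 genes including *Lrmda* reached 89.5% or more. The gains of *Lrmda* measured 12.4 to 36.3 percentage points with a median of 23.3 (quartiles 17.0 and 29.5), beside a median of 20.4 (quartiles 16.0 and 26.1) over all gains. A gain of at least 30 percentage points was reached by DMR 4, 6, 11 and 12, or 23.5% of the gains, beside 13.0% over the list.

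Only 3 other genes of the annotation had at least as many gain DMRs. These were *Magi1*, a scaffold protein of cell junctions, with 22, *Rora*, a nuclear receptor, with 19, and *Hspg2*, which encodes the basement membrane proteoglycan perlecan, with 19. *Hspg2* reached its number in 102 kb, so that it had 18.7 gains per 100 kb against 1.64 in *Lrmda*, 2.59 in *Rora* and 3.62 in *Magi1*. Among the 211 genes of at least 500 kb, *Lrmda* ranked 3 by number of gains and 8 by gains per 100 kb, where the median was 0.183 (quartiles 0.0752 and 0.379), and 46 of these genes had no gain. Over all 4595 genes with a DMR, most of them far shorter, it ranked 1769 by gains per 100 kb, within the quartiles of 0 and 3.18 (median 0.864). With reference CpGs as denominator, *Lrmda* had 2.17 gains per 1000 CpGs. This was rank 9 among the 211 genes of at least 500 kb (median 0.289) and rank 1325 among the 4595 (median 0.834). The *Magi1* gains started lower, with medians of 40.7% (infant) and 68.0% (young adult), whereas the medians of *Rora* were 63.1% and 84.6% and those of *Lrmda* 56.2% and 83.6%. The 3 long genes with the most similar pair of medians were *Lrba*, which takes part in vesicle trafficking, with 9 gains and medians of 56.7% and 78.9%, *St6galnac3*, a sialyltransferase gene, with 16 gains and medians of 54.5% and 78.9%, and *Prkg1*, a cGMP-dependent protein kinase gene, with 8 gains and medians of 61.6% and 82.1%. Likeness was measured as the distance over the 2 group medians, which was 4.73, 5.02 and 5.62 percentage points for these genes, 7.05 for *Rora* and 22.0 for *Magi1*.

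**Figure D3:**
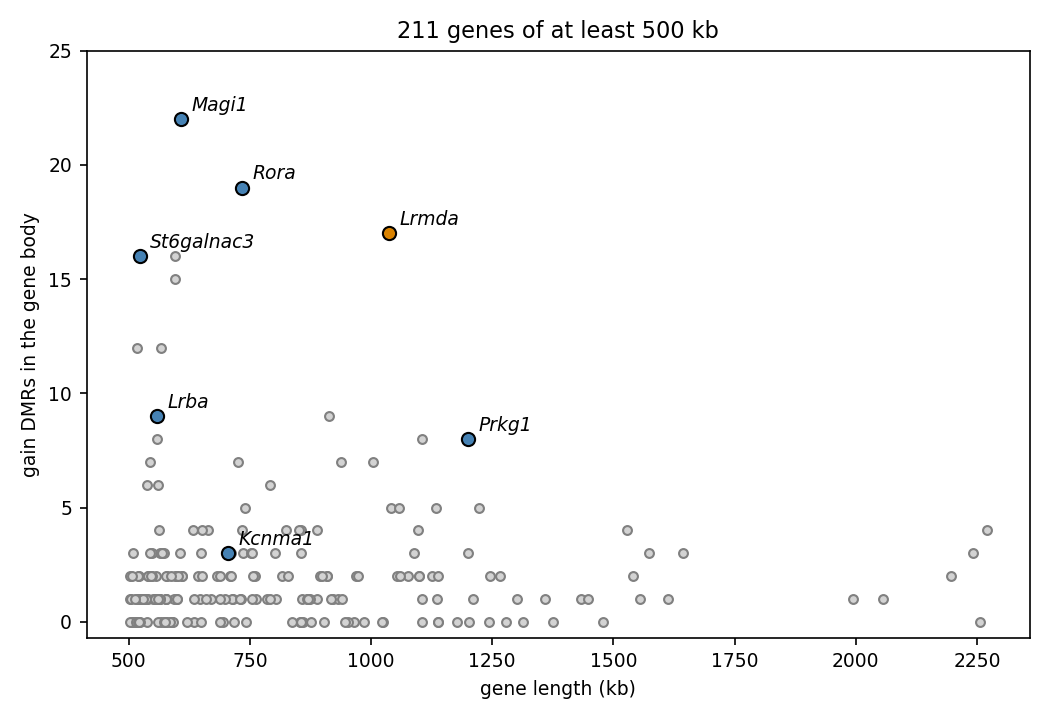
Number of gain DMRs in the gene body (vertical axis) against gene length in kb (horizontal axis) for the 211 genes of at least 500 kb, 1 point per gene, with *Lrmda* in orange and other named genes in blue. *Lrmda* has 17 gains at 1036 kb, and only *Magi1* with 22 and *Rora* with 19 lie above it.

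The DMRs were concentrated in the 5′ part of *Lrmda*. Intron 2 contained 17 of the 19 DMRs and 88.2% of the gains, with 53.1% of the length and 56.9% of the CpGs of the gene. Intron 4 contained 1 gain among 103 CpGs. Introns 5 and 6 contained 39.7% of the CpGs but only DMR 19, and nothing was listed in the last 311 kb, which holds 2143 CpGs. By position, the first 100 kb held 5 gains and 1 loss with 1045 CpGs, and the next 100 kb 3 gains and 1 loss with 804 CpGs. From 200 to 300 kb there were 3 gains with 887 CpGs, whereas from 800 kb to the end there was none with 676, 635 and 271 CpGs per step. The decline in DMRs was thus steeper than that in CpGs. The coverage of the 3′ part is unknown, and its part in the result was not tested. The gains lay at a median of 22.2% of the gene length from the start. In the other genes of at least 500 kb, with each DMR counted once per gene, the median was 60.8% over 496 gains, and it was 27.0% in *Magi1* and 38.7% in *Rora*. Neighbouring members were a median of 32.1 kb apart, with a range from 0.223 to 152 kb.

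**Figure D4:**
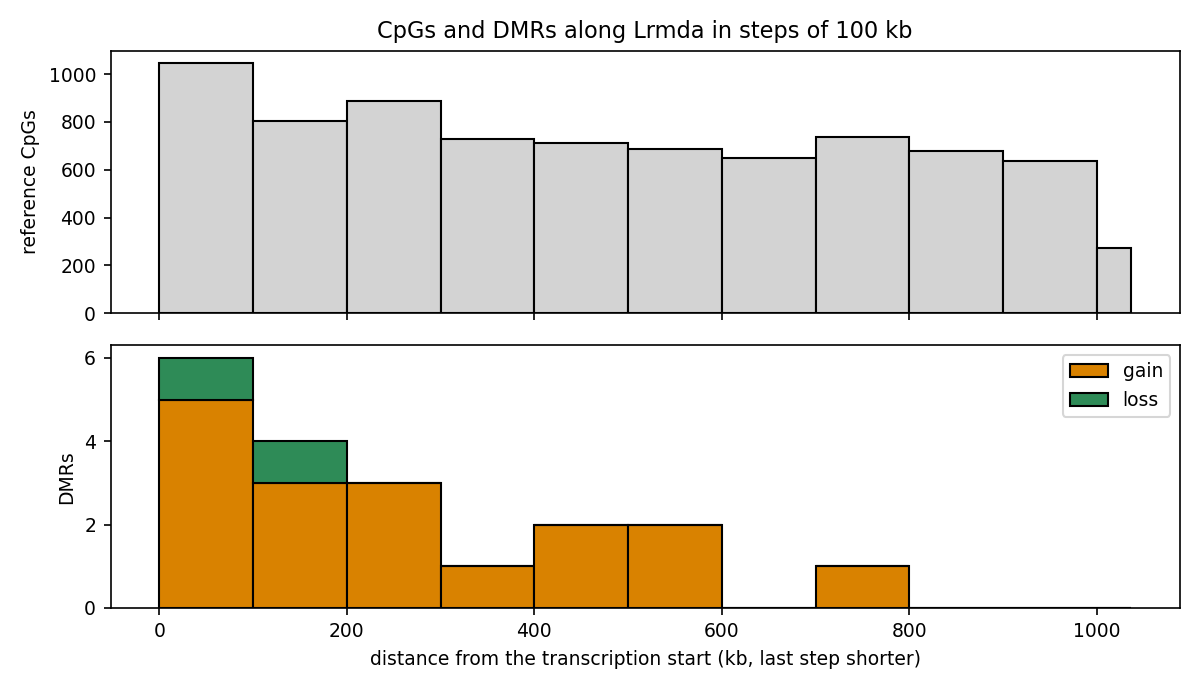
Reference CpGs (upper panel) and DMRs (lower panel, gains in orange and losses in green) along *Lrmda* in steps of 100 kb from the transcription start, the last step being shorter. The number of DMRs is highest in the first step with 6 and is 0 from 800 kb on, while the CpGs per full step range from 635 to 1045.

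No DMR lay in the first exon or in intron 1, but a region just outside the gene body lost methylation. It was found 0.629 kb before the transcription start, contained 3 CpGs in 34 bp and fell from 67% to 40.6%, a loss of 26.3 percentage points. It is shown as the listed region nearest to the start of *Lrmda*.
Region before the start (chr14:22019050-22019083): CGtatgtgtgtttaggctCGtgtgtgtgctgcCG
With DMR 1 at 16.7 kb as the first region inside, the direction at the 5′ end thus changed from loss before the start to gain in intron 2. The closest regions before that were a pair of gains 56.6 and 56.8 kb before the start, which rose from 8.72% to 35.7% and from 6.32% to 30.5%. On the other side, the list contained nothing for 373 kb after the end of *Lrmda*. The next 3 regions lay in *Kcnma1*, the gene of a calcium-activated potassium channel and the nearest protein-coding gene downstream. These were all the DMRs of *Kcnma1*, and they rose from 20.1% to 53.4%, from 40.7% to 62.5% and from 66% to 82.8%. The body of *Zfp503*, the nearest protein-coding gene upstream, which encodes a zinc finger repressor, contained no DMR.

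Assignment to the nearest promoter would divide the cluster. In the authors' list, 12 members had the promoter of NM_028275 as the nearest, 10 gains and both losses. The other 7, all gains, were given to NR_046307, the transcript of *4930405A10Rik*, an antisense long noncoding RNA gene that lies within intron 2 from 22507174 to 22542798. No DMR lay in the body of *4930405A10Rik* itself. Of the other annotated genes inside or overlapping *Lrmda*, only *Gm41107* with DMR 1 and 2 and *Gm30926* with DMR 19 contained a member, and *Gm5670*, *Gm7473*, *Gm18145*, *Gm30783* and *Gm10248* contained none.

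In sequence, the gains of *Lrmda* were poor in GC. Their median GC content was 42.7%, beside 50% over all gain DMRs and 46.2% over those in genes of at least 500 kb, and the losses had 42.7% and 40%. The gains were 31 to 287 bp wide with a median of 174 bp, beside 123 bp over all gains. Exactly 3 CpGs were found in 13 of the 17 gains (76.5%), close to the 78.5% of all gains. CpG islands, computed as 200 bp windows with 50% GC or more and over 0.6 times the CpGs that the base content predicts, overlapped DMR 10, 16 and 18, which is 17.6% of the gains beside 16.1% over the list. Soft-masked repeats were absent from 10 gains (58.8% beside 55.4%) and covered at most 29.3% of any.

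Windows of 200 bp centred on the DMRs were searched on both strands for short motifs. CAGAC, a SMAD binding element, was found in 9 of the 17 gains (52.9%), beside 40.6% of all gains. CGGAA was found in 2 gains, DMR 16 and DMR 17 (11.8% beside 14%). The match in DMR 12 lies outside its window and is not counted. AGATAA, which zinc finger factors of blood and endothelium bind, was found in DMR 10 only (5.88% beside 9.97%). TGANTCA, the AP-1 motif, was found in none of the gains, beside 6.29% over the list. The E-box CACGTG was found in no gain, beside 3.72%, but in the window of DMR 5, the larger loss, beside 4.77% of all losses. A match is a description of the letters in a window, and these counts are too small to tell the gene from the list.

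Of 31 genes of pigment cell development and melanosome formation, listed because of the known role of *Lrmda*, 31 were found in the annotation and 13 contained a DMR. At least 1 gain was found in 8 genes (25.8%), beside 12% of all curated genes (2975 of 24748), and at least 1 loss in 7 (22.6%), beside 8.93% (2211). The listed genes were longer, with a median of 35.3 kb against 15.0 kb, and no comparison matched on length was made. The list held 14 gains and 17 losses, and 10 of the losses lay in *Ednrb*, an endothelin receptor gene that is also expressed by lung capillary EC, with differences from -38.5 to -18.6 percentage points and no gain. *Mitf*, the master transcription factor of melanocytes, contained 3 gains and 1 loss, and *Kit*, the receptor of stem cell factor, 3 gains of 15.4 to 27.3 percentage points. *Ap3b1*, an adaptor subunit of vesicle sorting, contained 2 gains and 1 loss. *Bloc1s3* contained 2 gains, and *Bloc1s6* 2 losses, both subunits of a complex for lysosome-related organelles. Single gains were found in *Oca2*, *Mlana*, *Hps1* and *Hps4*, from 10.3 percentage points in *Mlana* to 20.6 in *Oca2*. Single losses were found in *Myo5a*, *Mlph* and *Bloc1s5*, from -40.5 in *Myo5a* to -26.6 in *Mlph*. The other 18 genes, among them *Tyr*, *Tyrp1*, *Rab32* and *Rab38*, contained no DMR.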

How the data were processed

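T-WGBS was performed by the authors on sorted lung EC of 3 infant and 3 young adult samples from 30 ng of DNA each. The authors trimmed adaptors with SeqPrep, aligned reads with BWA 0.6.1 to mm10 converted in silico, removed duplicates with Picard, used bases with a quality of at least 20 and left out 9 bp at the tagmented read ends. They called DMRs with bsseq in R 3.2.2 on unsmoothed data. The deposited list gives 1 fraction per group and DMR, the authors' mean over CpGs and samples, shown here as percent. The file's positions mark the C of the first and of the last CpG, counted from 0, which held for 18333 of 18333 DMRs on the GRCm38.p6 (mm10) sequence. Coordinates are printed counted from 1.

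Samples were grouped by the labels. Gene bodies came from curated RefSeq transcripts (24748 gene loci, mRNA and long noncoding RNA), and introns from NM_028275. Differences are young adult minus infant in percentage points. Sequence features were read from RefSeq with pysam 0.24.0 in Python 3.11.15. Counts per gene and introns were tested on simulated data. The gene, the lists and the comparisons were chosen with earlier results of these data known, and the position along long genes was added after seeing the values. The genes to name were fixed as *Lrmda*, the genes within it and on either side, *Magi1* and *Rora*, up to 5 genes with at least as many gains, the 3 long genes with at least 5 gains and the most similar medians, and pigmentation genes with a DMR. Alternatives changed the difference and CpG minima, joining of neighbours, membership, flanks, denominators and gene length. Fits per sample were not run, since values per sample were not used.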

Additional observations from a re-analysis of the deposited data

How the results depend on the processing

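The 17 gains and 2 losses remained when any overlapping base counted, and joining neighbours of like direction within 500 bp left 16 gains and 2 losses. A flank of 50 kb added 1 loss. A minimum difference of 20 percentage points left 10 gains and 1 loss, and no member of either direction (0 gains and 0 losses) contained at least 5 CpGs. The median gain of 23.3 percentage points was 29.4 at a minimum of 20, the mean weighted by CpGs was 23.8, and a median of 1.26 was found for the log2 ratio of the unmethylated share of infant over young adult EC. The rank by gains per 100 kb was 8 of 211 genes of at least 500 kb, 9 with CpGs as denominator, and 45 of 709 genes of at least 250 kb. NM_028275 is the only curated transcript, and the predicted transcript XM_006519680, added after seeing the data, put 18 in place of 17 DMRs in its intron 2. No paired analysis was possible because the list gives group means only, and fits without single replicates were not run for the same reason.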
